A study of Mus musculus with 6 samples.

Results

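Bulk RNA-seq of tumor endothelial cells (TECs) was read for 10 genes of the hypoxia response. The TECs came from subcutaneous tumors of Lewis lung carcinoma (LLC), a mouse lung cancer line. They are the HIF alpha subunit genes Hif1a and Epas1 and 8 hypoxia-induced genes outside glycolysis, Egln3, Bnip3, Ndrg1, Adm, Ankrd37, P4ha1, Ddit4 and Bhlhe40. All 10 were found by symbol among the 23473 RefSeq rows of the deposited table. They were selected from the values of this same contrast between the groups, so their differences are given as a description, with no p-value. Whether a gene passed the threshold of the fit over all rows is stated in the same sense and supports nothing.

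The 3 Ctrl mice were labelled wild type. The 3 NICeCA mice carried Cdh5-CreERT2 and, in Rosa26, a floxed stop cassette before the Notch1 intracellular domain (ICD), which tamoxifen then releases in cells that express Cdh5. All 6 were male C57BL/6 mice, labelled 8 weeks old. Per the methods, tamoxifen (100 mg/kg daily for 5 days) was injected for recombination before LLC cells were inoculated under the skin. The methods give day 14 for the collection of these tumors and speak of pairs of NICeCA and control mice, 3 of each, whereas the labels speak of different days and name no pairs. TECs were captured on CD31-coated beads, with a labelled purity of over 90%.

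Hypoxia-inducible factors (HIFs) are pairs of an oxygen-labile alpha subunit and the stable subunit ARNT. With oxygen at hand, prolyl hydroxylases of the EGLN family mark the alpha subunit, the VHL complex binds it and it is degraded, while the asparaginyl hydroxylase encoded by Hif1an blocks its contact with coactivators. Regulation is thus mostly of the protein, and transcripts of the targets are the usual readout in RNA. Epas1, which encodes HIF-2 alpha, is known for its high level in endothelium.

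The reads on RefSeq rows, recovered from the deposited RPKM values (reads scaled to the length of the gene model and to the reads of the library), numbered 29818454 to 30769916 in the Ctrl libraries and 27793301 to 29194187 in the NICeCA libraries. A member's row held 233 to 13650 reads in a library. Every endothelial marker examined was present, Pecam1 (CD31) at 47.5 to 154 RPKM, but the macrophage lysozyme gene Lyz2 lay at 2611 to 5555 RPKM, above Pecam1 in every library. Ribosomal precursor RNA (Rn45s) took 1.87 to 6.40% of RefSeq reads in Ctrl and 0.825 to 1.92% in NICeCA. In bulk RNA, fewer cells of a type and less RNA per cell cannot be told apart. The Notch target Hey1 was at 5.55, 2.69 and 2.78 RPKM in the Ctrl libraries and at 6.05, 10.6 and 9.91 RPKM in the NICeCA libraries (limma, log2 fold change 1.10, SE 0.27, adjusted p = 0.041). Notch1 itself was at 8.19 to 14.3 and 12.3 to 13.6 RPKM (log2 fold change 0.11, adjusted p = 0.71).

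Because HIFs bind a short core, ACGTG or GCGTG, in the DNA of their targets, the promoters of the members were read for these letters. RefSeq windows of 250 bases before 1 annotated transcription start (GRCm38.p6) were at hand for 7 of the 10 genes. Of these, 4 are printed here because these genes differed most between the groups among those with a window. The RefSeq span of Ankrd37 reaches upstream to chr8:46000414 and that of Hif1a to chr12:73901324, so both windows lie inside the annotated gene. The P4ha1 window does so in part, as its span begins at chr10:59323197. Lower case marks the sequence, 5′ to 3′ on the strand of the gene, and capitals mark each core on either strand. The Bnip3 window is chr7:138909507-138909756 on the minus strand, that of Ankrd37 chr8:45999851-46000100 on the minus strand, that of Egln3 chr12:54203875-54204124 on the minus strand and that of Ddit4 chr10:59951771-59952020 on the minus strand.
Bnip3: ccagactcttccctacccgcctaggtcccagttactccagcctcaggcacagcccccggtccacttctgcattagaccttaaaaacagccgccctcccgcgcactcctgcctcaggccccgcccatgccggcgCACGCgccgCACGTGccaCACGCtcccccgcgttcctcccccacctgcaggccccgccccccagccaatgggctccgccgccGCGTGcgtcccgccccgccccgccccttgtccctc
Ankrd37: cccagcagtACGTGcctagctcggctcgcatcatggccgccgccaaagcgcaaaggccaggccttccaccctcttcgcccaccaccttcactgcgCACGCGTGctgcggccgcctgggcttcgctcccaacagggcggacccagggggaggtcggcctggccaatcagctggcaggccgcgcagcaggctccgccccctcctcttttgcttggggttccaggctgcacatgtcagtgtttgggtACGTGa
Egln3: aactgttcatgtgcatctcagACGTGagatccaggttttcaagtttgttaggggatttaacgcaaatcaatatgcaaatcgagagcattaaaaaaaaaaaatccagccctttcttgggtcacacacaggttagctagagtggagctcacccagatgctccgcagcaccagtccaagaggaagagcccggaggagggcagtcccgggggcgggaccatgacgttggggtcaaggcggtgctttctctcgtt
Ddit4: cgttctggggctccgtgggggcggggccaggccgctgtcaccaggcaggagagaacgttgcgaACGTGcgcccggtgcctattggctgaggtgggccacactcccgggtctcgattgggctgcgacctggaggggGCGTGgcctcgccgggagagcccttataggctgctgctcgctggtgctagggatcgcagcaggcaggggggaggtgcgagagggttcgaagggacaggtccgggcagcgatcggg

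All 7 windows held a core. Bnip3 held 5, the first base of the nearest at position -35 from the start, and Ankrd37 held 4, the nearest at -6. The windows of Hif1a and P4ha1 held 3 cores each, those of Ddit4 and Adm 2 each, and that of Egln3 held 1, at -229. Of 27025 RefSeq promoters of the same length, 1 for each symbol, 38.6% held at least 1 core, and of the 8944 whose gene was tested here 57.0% did. Each core contains a CpG. The median number of CpG was 19 in the 7 windows, 16 in the promoters of tested genes and 6 in all promoters. How the number of CpG relates to the cores was not tested. The variant ACGTG was in 6 of the 7 windows, all but that of Adm, against 22.3% of the promoters of tested genes. In the lists described below it was in 27.1% of 70 promoters of other hypoxia-induced genes outside glycolysis. The shares were 40.0% of 20 promoters for glycolysis and 22.2% of 18 for the HIF machinery. The E-box CACGTG, the letters that BHLHE40 itself is known to bind, contains ACGTG on both strands and so counts as 2 cores; it was in the windows of Bnip3 and Hif1a and in 8.5% of the promoters of tested genes. GTGGGAA, the letters known for RBPJ, the DNA-binding partner of the Notch ICD, was in none of the 7 windows and in 5.3% of the promoters of tested genes. These matches describe letters in a window and are not measured binding sites.

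The 8 induced genes were higher in every NICeCA library than in any Ctrl library, whereas the groups overlapped for both alpha subunit genes. Bnip3 differed most, with a mean RPKM 5.08 times that of Ctrl, followed by Egln3 with 3.41 times. Hif1a and Epas1 had mean ratios of 1.39 and 1.53. The log2 fold change, of log2(RPKM + 1) in limma, was positive for all 10 genes, with a median of 1.19 beside a median of -0.05 over all 12320 tested rows. Of the 10 genes, 7 had an adjusted p under 0.05 and were higher, beside 5.88% of all tested rows called higher and 7.68% called lower. Over all rows this is 725 higher and 946 lower, a split that became 1002 and 684 after trimmed mean scaling and 446 and 325 after quantile normalization. Groups that did not overlap, with NICeCA above Ctrl, were found for 8 of the 10 genes and for 16.5% of all tested rows. As these genes were chosen on this contrast, nothing is read from these shares. The number past the threshold was 4 without Ctrl replicate 2, 3 without NICeCA replicate 1, 1 (Ndrg1) without NICeCA replicate 2 and 4 without NICeCA replicate 3. Calls over all rows, 1671 in all, numbered 379, 104, 18 and 1337 in these fits.

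**Figure D1:**
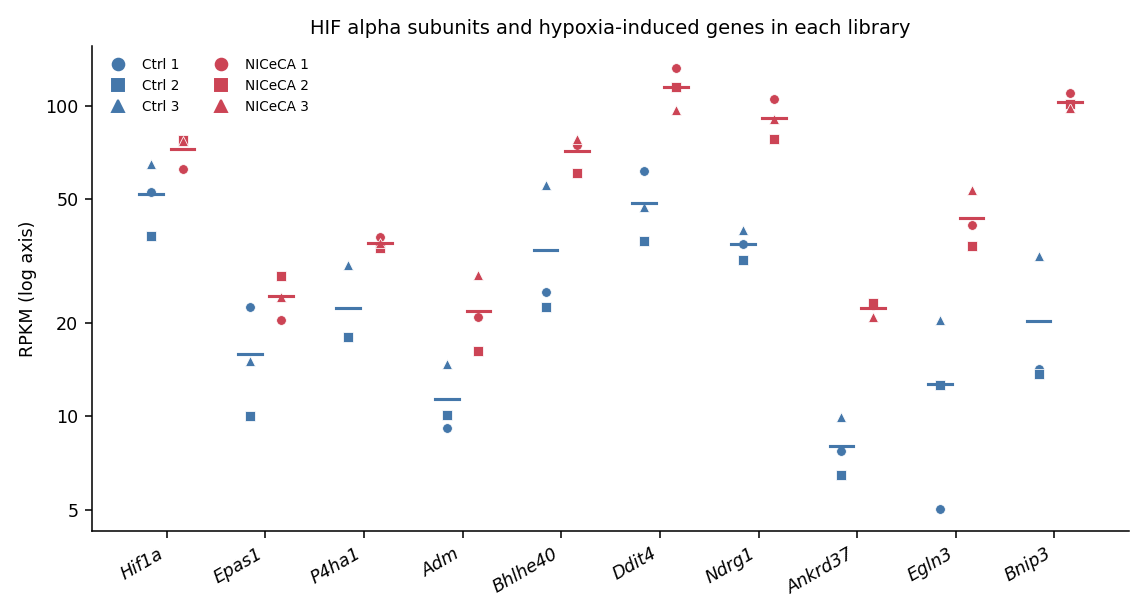
RPKM (log axis) of the 10 genes in each of the 6 libraries, ordered by log2 fold change. Symbols are libraries, blue Ctrl and red NICeCA, and bars are group means. From P4ha1 to Bnip3 every red symbol lies above every blue one, while for Hif1a and Epas1 the colours overlap, and the blue triangle, Ctrl replicate 3, is the highest Ctrl library in 8 of 10 genes.

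Hif1a, which encodes HIF-1 alpha (chr12:73907867-73947530, plus strand, GRCm38), had the highest Ctrl mean of the 10 transcripts, although Ddit4 exceeded it in Ctrl replicate 1. Its level was 52.8, 38.1 and 65.1 RPKM in Ctrl replicates 1 to 3 and 62.4, 77.6 and 77.0 RPKM in NICeCA replicates 1 to 3. The lowest NICeCA library thus lay just below the highest Ctrl library, at 0.959 of its level. The means were 52.0 ± 13.5 and 72.3 ± 8.58 RPKM (SD, n = 3 each), with a log2 fold change of 0.49 (SE 0.20) that did not pass the threshold.

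Epas1 (chr17:86753864-86833410, plus strand) was at 22.6, 10.0 and 15.1 RPKM in Ctrl and at 20.4, 28.4 and 24.2 RPKM in NICeCA. Here Ctrl replicate 1 was the highest Ctrl library and exceeded NICeCA replicate 1, so the groups overlapped. The means were 15.9 ± 6.31 and 24.3 ± 4.01 RPKM (SD, n = 3 each), and the log2 fold change of 0.64 (SE 0.27) did not pass the threshold, except without Ctrl replicate 1, when it was 0.92. With the mean of the endothelial markers as a covariate the log2 fold change of Epas1 was 0.10. Per 1000 RPKM of summed endothelial markers, Epas1 came to 42.1, 49.2 and 55.1 in Ctrl and to 45.4, 47.9 and 44.5 in NICeCA. All 3 NICeCA values lay inside the Ctrl range, as they did for Hif1a, Adm, P4ha1 and Bhlhe40 over wider Ctrl ranges.

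The 2 subunit genes did not keep a fixed proportion in Ctrl. Hif1a was 2.34, 3.81 and 4.32 times as abundant as Epas1, per length, in the Ctrl libraries and 3.06, 2.73 and 3.18 times in the NICeCA libraries, so that the NICeCA ratios lay within the Ctrl range. The rows most like each subunit gene differed as well, by the Pearson correlation of log2 values over the 6 libraries after the group means had been subtracted, among 8236 rows with a mean of at least 5 RPKM. For Epas1 they were S1pr1 (r = 0.998), A4galt (0.995) and Ablim1 (0.993), and for Hif1a Ugcg (0.9997), F630028O10Rik (0.998) and Atp2b4 (0.997). With 6 libraries and 2 means removed such values are a description of these libraries, whose cell composition and depth the rows share.

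Egln3, the prolyl hydroxylase PHD3 that acts back on HIF alpha (chr12:54178981-54203874, minus strand), had the widest Ctrl spread. It was at 5.04, 12.6 and 20.5 RPKM in Ctrl, a 4.07-fold range, and at 41.4, 35.2 and 53.4 RPKM in NICeCA. The lowest NICeCA library was still 1.72 times the highest Ctrl library. The log2 fold change was 1.85 (SE 0.41), from 1.35 to 2.27 when single libraries were left out.

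Bnip3 (chr7:138890836-138909506, minus strand) encodes a mitochondrial protein that promotes mitophagy. Its level was 14.3, 13.7 and 32.9 RPKM in Ctrl and 109.5, 101 and 98.3 RPKM in NICeCA. The NICeCA libraries lay close together, within 1.11-fold, and the lowest of them was 2.99 times the highest Ctrl library. The means were 20.3 ± 11.0 and 103 ± 5.82 RPKM (SD, n = 3 each) and the log2 fold change was 2.40 (SE 0.30), rank 27 from the top among the 12320 tested rows.

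Ddit4 (chr10:59949675-59951770, minus strand) encodes REDD1, an inhibitor of mTORC1. It was at 61.5, 36.8 and 47.3 RPKM in Ctrl and at 132, 115 and 97.1 RPKM in NICeCA. Ctrl replicate 1, not 3, was the highest Ctrl library for this gene, and the groups stayed apart by 1.58-fold. The log2 fold change was 1.24 (SE 0.21), and 0.94 after quantile normalization.

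Ndrg1 (chr15:66929318-66969641, minus strand), a stress-responsive gene, had the narrowest Ctrl spread of the 10, at 35.8, 31.9 and 39.9 RPKM. In NICeCA it was at 105, 78.3 and 90.8 RPKM. The gap between the groups was 1.96-fold, and the log2 fold change was 1.32 (SE 0.15).

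Ankrd37 (chr8:45996908-45999850, minus strand), a small ankyrin repeat protein gene, had the lowest Ctrl mean of the 10, at 7.76, 6.47 and 9.96 RPKM. The NICeCA libraries were at 22.8, 23.2 and 21.0 RPKM, all more than the highest Ctrl library by at least 2.11-fold. The log2 fold change was 1.38 (SE 0.16). The neighbouring Ufsp2 row overlaps it by 49 bases on the other strand and was at 6.90 to 9.33 RPKM in Ctrl and 9.80 to 13.3 RPKM in NICeCA.

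Adm encodes adrenomedullin, a peptide that dilates vessels and acts on endothelial cells (chr7:110627669-110629819, plus strand). Its level was 9.18, 10.1 and 14.7 RPKM in Ctrl and 20.9, 16.2 and 28.5 RPKM in NICeCA. The gap was narrow, 1.10-fold between NICeCA replicate 2 and Ctrl replicate 3. The log2 fold change was 0.88 (SE 0.23).

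Bhlhe40, a transcriptional repressor gene (chr6:108660629-108666925, plus strand), was at 25.2, 22.6 and 55.5 RPKM in Ctrl and at 74.8, 60.9 and 78.2 RPKM in NICeCA. Ctrl replicate 3 stood 2.46 times above Ctrl replicate 2 and came within 1.10-fold of the lowest NICeCA library. The log2 fold change of 1.14 (SE 0.31) ranged from 0.90 to 1.53 when single libraries were left out. The row 0610040F04Rik, which shares 306 bases with Bhlhe40 on the other strand, was at 2.61, 2.79 and 5.07 RPKM in Ctrl and at 7.51, 5.42 and 7.85 RPKM in NICeCA. The strand setting of the counting is unknown here, and reads of such pairs cannot be told apart.

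P4ha1 (chr10:59323296-59373304, plus strand), the catalytic subunit of a collagen prolyl 4-hydroxylase, was at 18.1, 18.0 and 30.8 RPKM in Ctrl and at 37.7, 34.9 and 36.2 RPKM in NICeCA. The groups did not overlap, by 1.13-fold, yet the log2 fold change of 0.72 (SE 0.21) did not pass the threshold. It did so with trimmed mean scaling, with voom on the recovered reads and without Ctrl replicate 3.

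**Figure D2:**
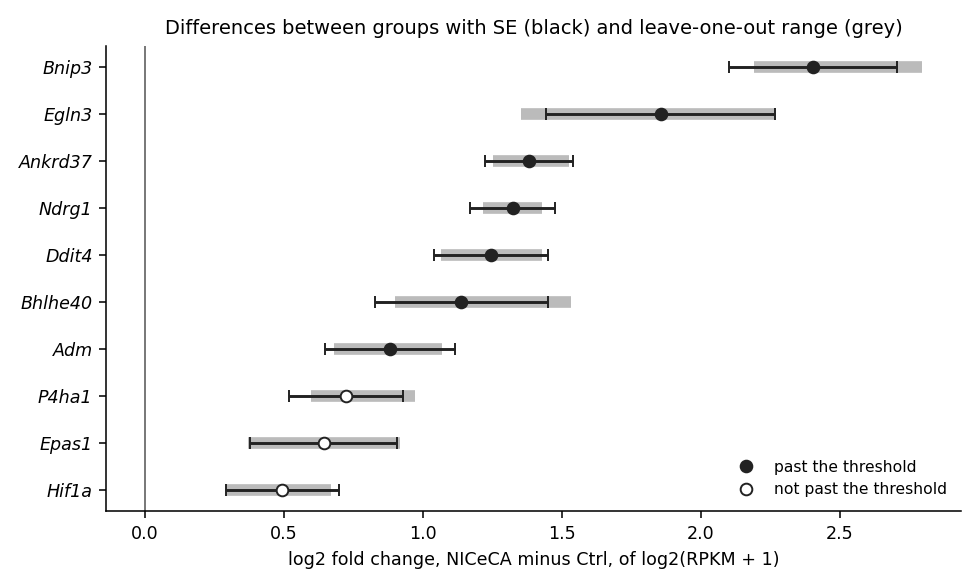
Log2 fold change (NICeCA minus Ctrl, of log2(RPKM + 1)) of the 10 genes, with SE as black bars and the range over fits without 1 library in grey. Filled circles have a limma adjusted p under 0.05. All ranges lie above 0, from 0.29 at the lowest for Hif1a to 2.80 at the highest for Bnip3.

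Within Ctrl the same libraries were often high or low across these genes. Ctrl replicate 3 was the highest Ctrl library for 8 of the 10 genes and Ctrl replicate 2 the lowest for 8. On the log2 scale, 8 of the 10 genes spread more in Ctrl than in NICeCA. The shares over all rows were not determined, so this order and spread are not shown to be particular to these genes. The sum of endothelial markers was also lowest in Ctrl replicate 2 (204 RPKM), that of neutrophil markers in Ctrl replicate 1 (127 RPKM). The mean log2(RPKM + 1) of the 8 induced genes was 4.14, 4.14 and 4.84 in Ctrl and 5.82, 5.61 and 5.80 in NICeCA. The order of the levels, compared per length, also differed between the groups: in Ctrl the ranges of all 9 neighbouring pairs overlapped, from Hif1a at the top through Ddit4, Ndrg1, Bhlhe40, P4ha1, Bnip3, Epas1, Egln3 and Adm to Ankrd37. In NICeCA Ddit4, Bnip3 and Ndrg1 led, each overlapping the next, and lay above Hif1a and Bhlhe40, which overlapped each other. This step was barely a gap, with the lowest Ndrg1 library at 78.26 RPKM and the highest Bhlhe40 library at 78.23 RPKM. Below Hif1a and Bhlhe40 came Egln3 and P4ha1, overlapping, and then Epas1, Ankrd37 and Adm, whose ranges overlapped in turn.

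Whether the genes that sense oxygen and set HIF activity differed as well was read from a list of 22 such genes, of which 19 were expressed at a mean of at least 1 RPKM. Cited2 and Tceb1 were called higher and Crebbp and Usp20 lower, 10.5% of the 19 in each direction and near the 5.88% and 7.68% of all rows, and the median log2 fold change of the list was 0.12. Hif3a, Arnt2 and P4htm were below 1 RPKM and not tested. The 4 calls fell to 2 without Ctrl replicate 1 or NICeCA replicate 3 and to 0 without Ctrl replicate 2, NICeCA replicate 1 or NICeCA replicate 2, when limma still gave 3 higher and 3 to 4 lower genes at an unadjusted p under 0.05.

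The partner Arnt, the hydroxylase genes Egln1, Egln2 and Hif1an, and Vhl were not called. Arnt was at 8.59 to 9.58 RPKM in Ctrl and 7.20 to 7.86 RPKM in NICeCA (log2 fold change -0.24, SE 0.11, limma adjusted p = 0.16). Egln1, the main HIF prolyl hydroxylase PHD2, was at 15.4, 18.1 and 20.9 RPKM in Ctrl and 27.4, 20.0 and 25.4 RPKM in NICeCA (log2 fold change 0.40, SE 0.16, limma adjusted p = 0.13). Unlike those of Egln3, the ranges of Egln1 overlapped, and a test of the difference between the 2 genes was not made. Egln2, which encodes PHD1, lay at 28.4 to 35.8 RPKM in Ctrl and 27.4 to 36.3 RPKM in NICeCA (log2 fold change -0.04, SE 0.15, limma adjusted p = 0.87), with a positive sign after trimmed mean scaling. Hif1an, at 5.35 to 7.46 RPKM in Ctrl and 3.52 to 4.37 RPKM in NICeCA, missed the threshold (log2 fold change -0.51, SE 0.15, limma adjusted p = 0.056). Vhl, the substrate receptor of the ubiquitin ligase, was at 9.71 to 11.7 and 11.4 to 13.7 RPKM (log2 fold change 0.20, SE 0.13, limma adjusted p = 0.28).

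Of the called genes, Cited2, a HIF target whose product competes with HIF alpha for the coactivators p300 and CBP, was at 22.0, 22.2 and 29.9 RPKM in Ctrl and 51.5, 39.7 and 46.4 RPKM in NICeCA (log2 fold change 0.87, SE 0.16, limma adjusted p = 0.025). Crebbp, which encodes CBP, was at 14.2, 14.5 and 18.3 RPKM in Ctrl and 8.49, 8.87 and 10.4 RPKM in NICeCA (log2 fold change -0.70, SE 0.14, limma adjusted p = 0.030). Its paralog Ep300 had a log2 fold change of -0.46 and was not called (limma adjusted p = 0.12). Tceb1, the elongin C subunit of the VHL complex, had a log2 fold change of 0.60 (SE 0.15, limma adjusted p = 0.043) and Usp20, a deubiquitinase gene, one of -0.51 (SE 0.13, limma adjusted p = 0.042).

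**Figure D3:**
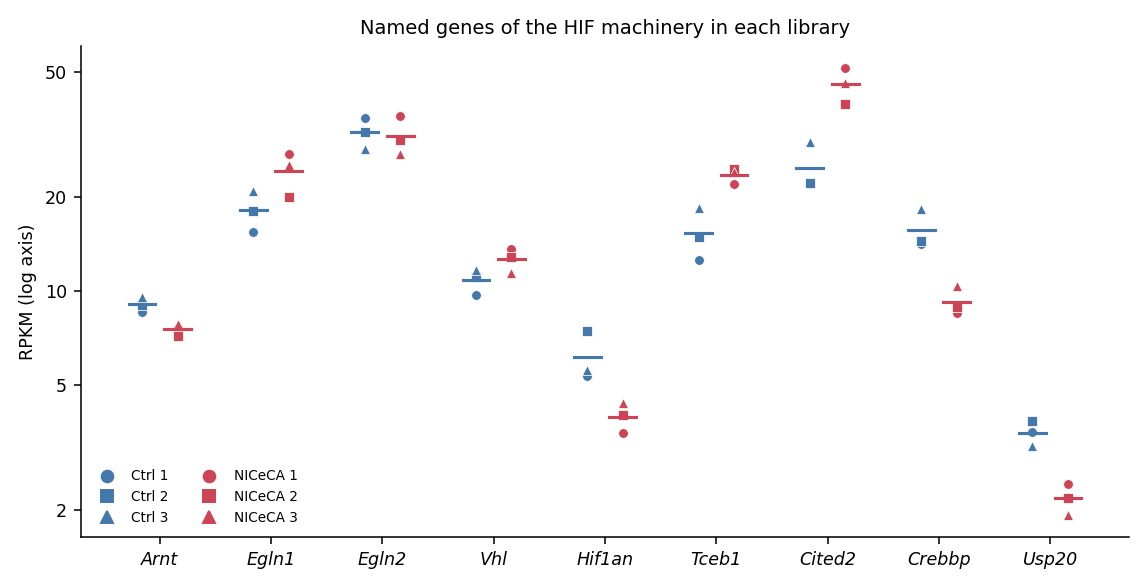
RPKM (log axis) of 9 named genes of the HIF machinery in each library, with Ctrl in blue, NICeCA in red and group means as bars. Cited2 and Tceb1 are higher and Crebbp and Usp20 lower in every NICeCA library, Egln1, Egln2 and Vhl overlap, and Arnt and Hif1an lie apart without passing the threshold.

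Other hypoxia-induced genes were higher too, though not all of them. In a list of 90 such genes outside glycolysis without the 10 above, 82 were tested, of which 39 were called higher and 0 lower, with 8 below 1 RPKM on average. At an unadjusted p under 0.05 limma gave 2 lower genes, and voom called 0 lower. This is 47.6% called higher, beside 5.88% of all tested rows, and the median log2 fold change was 0.65. Among the tested genes that were not called were Car9 (log2 fold change 0.18), Kdm3a (0.30) and Plod2 (-0.62). Of the 82 genes, 8 had a negative log2 fold change. In 21 genes of glucose uptake and glycolysis, 15 were called higher and 1 lower, with a median of 0.91. Cited2 and Egln1 stand both in the first of these lists and in that of the HIF machinery, so the call of Cited2 counts in both. Both lists were written with results of these data known, so neither is independent evidence of a direction. The calls outside glycolysis numbered 17 without Ctrl replicate 2, 5 without NICeCA replicate 1 and 2 without NICeCA replicate 2. Those of glycolysis numbered 8 without Ctrl replicate 1, 5 without Ctrl replicate 2, 0 without NICeCA replicate 1 or 2, when 16 or 17 were higher at an unadjusted p under 0.05, and 10 without NICeCA replicate 3.

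Hilpda, a lipid droplet gene that restrains triglyceride breakdown, rose most, from 33.7, 42.8 and 86.0 RPKM in Ctrl to 392.5, 435 and 415 RPKM in NICeCA (log2 fold change 3.02, SE 0.31, limma adjusted p = 0.0088). This exceeded the difference of any of the 10 genes above. Hmox1, the heme oxygenase gene, had 126, 231 and 192 RPKM in Ctrl and 600.3, 716 and 808 RPKM in NICeCA, a log2 fold change of 1.98 (SE 0.24). Vegfa, the vascular growth factor that HIFs are best known to induce, rose from 41.7, 35.7 and 70.1 RPKM to 111, 108 and 125 RPKM (log2 fold change 1.26, SE 0.24, limma adjusted p = 0.025). Its relative Pgf rose as well, with a log2 fold change of 1.81. Bnip3l, the paralog of Bnip3, rose from 21.1, 14.7 and 22.1 RPKM to 35.4, 34.1 and 33.1 RPKM (log2 fold change 0.82, SE 0.17, limma adjusted p = 0.029). The other leading genes were Igfbp3 (log2 fold change 1.80), which encodes a binding protein of insulin-like growth factors, Ero1l (1.77), an oxidase of the endoplasmic reticulum, Nos2 (1.75), the inducible nitric oxide synthase, Esm1 (1.62), an endothelial tip cell gene, and Errfi1 (1.52), an inhibitor of EGF receptor signaling.

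In the glycolysis list the glucose transporter gene Slc2a1 led, with 32.5, 43.8 and 79.4 RPKM in Ctrl and 175, 142 and 184 RPKM in NICeCA (log2 fold change 1.76, SE 0.30, limma adjusted p = 0.021). The enzyme genes Pgk1 (1.49), Tpi1 (1.22), Aldoa (1.10), Aldoc (1.06) and Ldha (0.99) and the transporter genes Slc16a3 (1.14) and Slc2a3 (1.03) followed, each called higher. Eno2, the neuronal enolase, fell from 1.84, 2.88 and 1.63 RPKM to 0.635, 0.721 and 0.980 RPKM (log2 fold change -0.79, SE 0.18, limma adjusted p = 0.037).

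**Figure D4:**
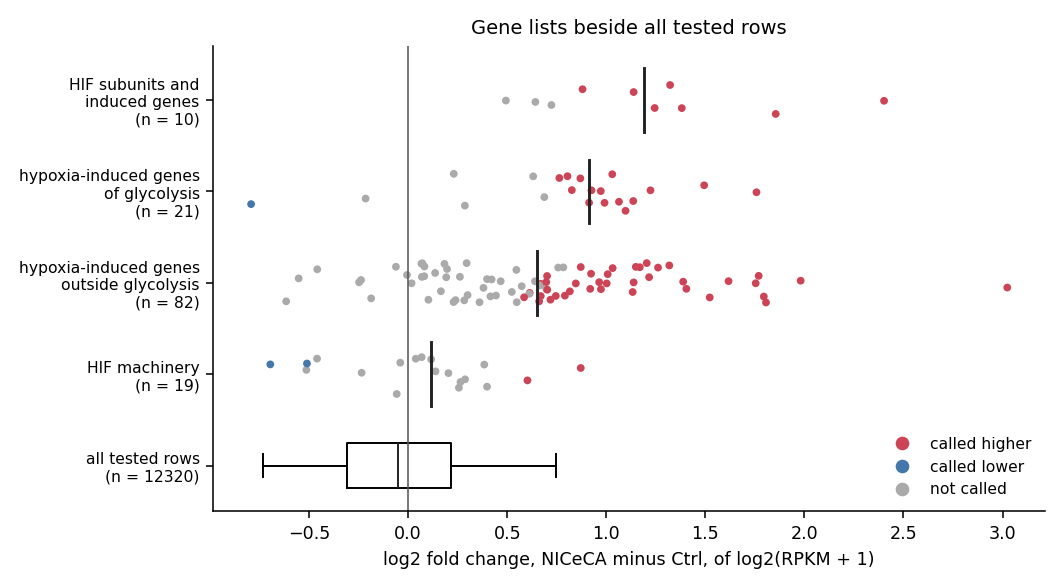
Log2 fold change (NICeCA minus Ctrl, of log2(RPKM + 1)) of every tested gene in each list, with black lines at the medians. The box holds all 12320 tested rows (quartiles, whiskers from the 5th to the 95th percentile). The 2 lists of hypoxia-induced genes have medians of 0.65 and 0.91 and the 10 genes described above one of 1.19, while the HIF machinery, at 0.12, lies near the -0.05 of all rows.

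Markers of neutrophils were higher in NICeCA together with these genes, while the sums of most other marker lists overlapped between the groups. The summed level of 12 endothelial markers was 536, 204 and 273 RPKM in Ctrl and 449.9, 593 and 543 RPKM in NICeCA, with 0 of the 12 called by limma or voom, 3 at an unadjusted p under 0.05 and a median log2 fold change of 0.65. That of 11 neutrophil markers was 127, 212 and 288 RPKM in Ctrl and 641, 900 and 1726 RPKM in NICeCA, with 8 of 9 tested called higher, and Mpo at 0 in some libraries. The 12 macrophage markers summed to 7089 to 10070 RPKM in Ctrl and 5498 to 9414 RPKM in NICeCA, with 4 called higher, and 12 fibroblast and mural markers to 358 to 591 and 219 to 439.5 RPKM, with 2 called higher and 3 lower. Among 6 platelet markers, at 107 to 178 RPKM in Ctrl and 896 to 1131 RPKM in NICeCA, only Pf4 was called. The 8 epithelial and tumor markers summed to 7.13 to 13.1 and 6.73 to 8.92 RPKM, with Krt19 and Cldn4 at 0 in some libraries and 1 of 2 tested called lower, and 9 of T and NK lymphocytes to 51.8 to 80.9 and 50.0 to 70.6 RPKM. In the lymphocyte list limma and voom called 0 genes, and 1 had an unadjusted p under 0.05.

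Dividing each gene by such a sum in the same library, a step chosen after the data had been seen, gave the following. Per unit of fibroblast and mural markers, 9 of the 10 genes, all but Epas1, were higher in every NICeCA library, beside 16.3% of all tested rows. Per unit of macrophage markers 5 were, namely Egln3, Bnip3, Ndrg1, Ankrd37 and Ddit4, beside 8.88% of all rows. Per unit of endothelial markers 2 were, Bnip3 and Ankrd37, beside 1.10% of all rows, and per unit of neutrophil markers 0 were, beside 0.0974% of all rows. Bnip3 per 1000 RPKM of endothelial markers was 26.6, 67.0 and 120 in Ctrl and 243, 171 and 181 in NICeCA. Per 1000 RPKM of neutrophil markers it was 112, 64.3 and 114 in Ctrl and 171, 112 and 57.0 in NICeCA, and the groups overlapped. For Egln3 the same quantity was 39.6, 59.3 and 71.2 in Ctrl and 64.6, 39.2 and 30.9 in NICeCA. The part of neutrophils and of other cells in these differences was not tested. A sum follows its most abundant genes, so the ratios do not stand for whole cell types. Col3a1, called lower, was the largest part of the fibroblast and mural sum, at 270, 454 and 300 RPKM in Ctrl. Rgs5 and Tagln of the same list were called higher. Lyz2, not called, was the largest part of the macrophage sum, while Cd68, Cd14, Fcgr1 and Msr1 were called higher. S100a8 and S100a9, both called higher, were the largest parts of the neutrophil sum except in Ctrl replicate 1, where Retnlg was. In NICeCA replicate 3 they were at 660 and 742 RPKM of a sum of 1726 RPKM. Csf3r of the same list was not called (log2 fold change 0.51).

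**Figure D5:**
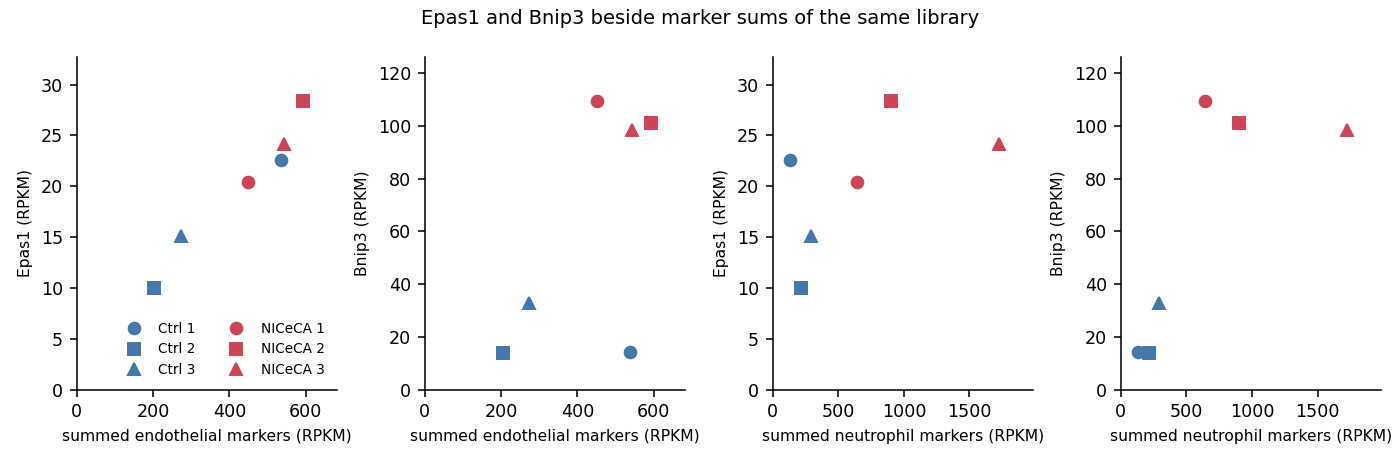
RPKM of Epas1 and Bnip3 against the summed RPKM of endothelial (left pair) and neutrophil markers (right pair) in each library, all axes from 0, with Ctrl in blue and NICeCA in red. Epas1 lies at 42.1 to 55.1 per 1000 RPKM of endothelial markers in all 6 libraries, whereas Bnip3 in Ctrl replicate 1 is low at an endothelial sum of 536 RPKM.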

How the data were processed

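RNA was sequenced from CD31-bead TECs of 3 Ctrl and 3 NICeCA mice after removal of ribosomal RNA. The authors deposited 1 RPKM value per library for each of 56826 rows, of which 23473 are RefSeq rows, used here, and 33353 FANTOM3 rows. The submitters' processing notes name TopHat2 and mm9, but 99.3% of matched rows overlap their GRCm38 place. The counting tool and its strand setting: not given in the sources used here. Samples were grouped by their titles.

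RPKM was taken as log2(RPKM + 1) and compared with limma 3.58.1 in R 4.3.3 (mean-variance trend, two-sided, no covariate) over the 12320 RefSeq rows with a mean of at least 1 RPKM, with Benjamini-Hochberg adjustment over all of them and a threshold of 0.05. The procedure was also run on simulated reads, drawn independently for each row without shared shifts in cell composition. That run therefore does not show its error rate in these libraries. An exact permutation test of 3 against 3 libraries has a smallest two-sided p of 0.1 and was not used. Whole reads were recovered from the RPKM steps (100.0% of values under 1000 reads within 0.05 of a whole number), which gave the depth and a voom fit.

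The members, gene lists and marker lists were chosen with earlier results of these data known. Named were all 10 members, up to 8 called genes with the largest difference in each direction of each list, and, of the machinery, Arnt, Egln1, Egln2, Vhl and Hif1an, and Vegfa and Bnip3l. Lyz2, Pecam1, Hey1, Notch1, Ep300, Car9, Kdm3a, Plod2 and the single marker genes named beside their sums were named after their values were seen. Alternatives were other scalings, filters and pseudocounts, no trend, a replicate block, an endothelial marker covariate and leaving out each library. Ly6g and Trac were not analysed here. A further list of markers is not reported here.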

Additional observations from a re-analysis of the deposited data

Results flagged for a closer look

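Of 4 FANTOM3 transcript rows on the strand opposite a member, 3 were higher in every NICeCA library than in any Ctrl library. The other, which overlaps Hif1a by 21050 bases, was at 18.7, 13.1 and 25.2 RPKM in Ctrl and 22.6, 25.8 and 28.5 RPKM in NICeCA, and the groups overlapped. The row that overlaps Ndrg1 by 319 bases was at 0.842, 1.12 and 1.61 RPKM in Ctrl and was lowest at 2.54 RPKM in NICeCA. That which overlaps Ankrd37 by 543 bases was at 1.86, 2.06 and 2.62 RPKM in Ctrl and at least 5.39 RPKM in NICeCA. The row across Bhlhe40, with 306 shared bases, was at 3.59, 3.84 and 6.99 RPKM in Ctrl and at least 7.47 RPKM in NICeCA. It has the same coordinates as the row 0610040F04Rik given above, so it is not a further observation. Without knowledge of the strand setting in counting, reads of the 2 strands cannot be told apart where these rows overlap. The share of all FANTOM3 rows with such groups was not determined, so nothing is read from the count of 3.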

How the results depend on the processing

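All 150 log2 fold changes of the 10 genes under the 15 alternatives were positive, and 147 moved by less than 1 SD. The exceptions were Epas1 (0.10 with the endothelial covariate), Ndrg1 (1.07) and Ddit4 (0.94), the latter both after quantile normalization. Calls depended more on the setting. Of the 10 genes, 7 were called, with 4 after quantile normalization, 4 without the filter on low values, 0 with the endothelial covariate and 1 to 8 when a library was left out. The 4 calls of the HIF machinery became 2, 0, 0 and 0 to 4 under the same settings, the 39 outside glycolysis 20, 12, 0 and 2 to 38, and the 16 of glycolysis 8, 4, 0 and 0 to 18. With the endothelial covariate 0 of all rows were called, while 2395 of the 12320 tested rows had an unadjusted limma p under 0.05. Egln2 changed sign with trimmed mean scaling (0.022) and ranged from -0.147 to 0.049 when a library was left out, positive without Ctrl replicate 1 or NICeCA replicate 3. Over all tested rows 43.4% of the calls were in the higher direction, against 59.4% with trimmed mean scaling, 57.8% after quantile normalization and 49.9% with voom. Same-numbered libraries had correlations of 0.12, -0.34 and -0.18 after the group means were subtracted. With 3 libraries in each group these values cannot decide whether the mice were paired by number. With a replicate block 7 of the 10 genes, 2 of the machinery, 19 outside glycolysis and 6 of glycolysis were called. The genes and lists were chosen with this contrast known, and the share of all rows is not given for every setting. Nothing is therefore read from the counts in this paragraph. The cause of these changes was not tested, and no row of the 10 genes held fewer than 233 reads.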
